A study of Mus musculus with 20 samples.

Results

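Fgfr2 encodes a receptor tyrosine kinase for fibroblast growth factors, and its locus was followed through 14 region lists from ATAC-seq of mouse mammary and mammary tumour cells. ATAC-seq marks open chromatin by the insertion of adapters by the transposase Tn5. The members were all entries of the lists that overlapped a 550 kb window of chromosome 7, chr7:137100000-137650000 on build mm9. They numbered 145 of 311468 entries in all lists together. They came from 6 of the 14 lists: 42 basal peaks, 36 fMaSC peaks, 25 mature luminal peaks, 9 luminal progenitor peaks, 27 tumour regions called closed and 6 basal regions named UAR. The other 8 lists had no entry in the window. The window was chosen by what these lists hold there, the peaks of each lineage and the PY230 open and closed regions, so its counts are described beside those of the whole lists and carry no test.

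The tumour groups were 3 luminal SOX10-high and 3 luminal SOX10-low samples sorted from transplanted PY230 tumours in C57BL6J mice. PY230 is a mouse mammary tumour line, so these samples stand for 1 tumour model. The normal groups were C57BL6J mammary gland populations of 2 samples each. They were fMaSC cells at embryonic day 18 and, from adults, basal cells, mature luminal cells and luminal progenitors. The label fMaSC stands for fetal mammary stem cells, a sorted fetal population. Adult ducts have an outer basal layer, which contracts, and an inner luminal layer. Luminal progenitors give rise to milk-secreting cells, and mature luminal cells sense hormones. SOX10 is a transcription factor of the neural crest that is also found in some mammary epithelial cells. The labels do not give the sort markers or the limit between high and low SOX10, and marker loci could not be looked up without an mm9 annotation. Of the 20 samples, the basal SOX10-high, C3-1-TAg, bulk tumour and culture samples were not analysed here.

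Fibroblast growth factors made in the mammary stroma, such as FGF7 and FGF10, bind the epithelial isoform of the FGFR2 protein. The receptor then activates the MAP kinase and PI3 kinase pathways. In mice, signalling through this receptor is needed to form the mammary bud in the embryo and for the branching of ducts. The locus is also known for its many regulatory elements spread over introns and flanks.

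Fgfr2 lies near 137.306 to 137.41 Mb on mm9 and is read from the minus strand, so its 5′ end is at the higher coordinate. This interval of 104 kb is approximate. No mm9 annotation was at hand, and in the RefSeq table of build GRCm38.p6 the gene is 104358 bp long, between the protein-coding genes Wdr11 on the 3′ side and Ate1 on the 5′ side. Exons and introns within the interval were therefore not assigned. Distances below are from the 5′ end, downstream into the gene and past it, or upstream of it.

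The 5′ end is the landmark of the locus because a peak covered its approximate position, 137.41 Mb, in every normal cell type. The sequence just upstream of the annotated start is shown. It was not placed on mm9, so which peaks cover it is not known. These 250 bases are from RefSeq, build GRCm38.p6, chr7:130266809-130267058, minus strand, 5′ to 3′, ending at the base before the annotated start. Capitals mark CpG dinucleotides.
Fgfr2 promoter: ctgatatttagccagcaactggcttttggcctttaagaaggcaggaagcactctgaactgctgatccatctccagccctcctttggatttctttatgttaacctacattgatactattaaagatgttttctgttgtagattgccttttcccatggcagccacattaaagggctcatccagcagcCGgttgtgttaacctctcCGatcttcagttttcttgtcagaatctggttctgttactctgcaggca
This stretch held 2 CpGs, against a median of 6 in the 32851 promoters of the table, of which 71.0% held more. Its GC content was 44.0%, against a median of 52.4%. The 5-base SOX core ACAAT was not in these letters on either strand, as in most promoters (27.7% held it). Nor were the AP-1 motif TGANTCA (6.75% of promoters), the forkhead motif TGTTTAC (3.17%), the GATA motif AGATAA (9.99%), the E-box CACGTG (6.02%), the CCAAT box (33.8%) or the TATA box TATAAA (12.4%).

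The site at the 5′ end lay at chr7:137408102-137410620 and was among the strongest of the locus in each normal type. Values of these peaks are the authors' fold enrichments over background, used here only to rank peaks within a list. Basal cells had a peak of 2519 bp there with a fold of 20.7, which placed it in the top 9.57% of basal peaks. In fMaSC cells the peak was 2000 bp wide with a fold of 20.3, in the top 9.02%. It had the highest fold of the window in fMaSC cells and in luminal progenitors, where it was 1996 bp wide with a fold of 15.8 (top 11.7%). Mature luminal cells had the narrowest peak, of 1078 bp, with a fold of 13.5 (top 26.3%). Neither PY230 list touched this site.

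**Figure D1:**
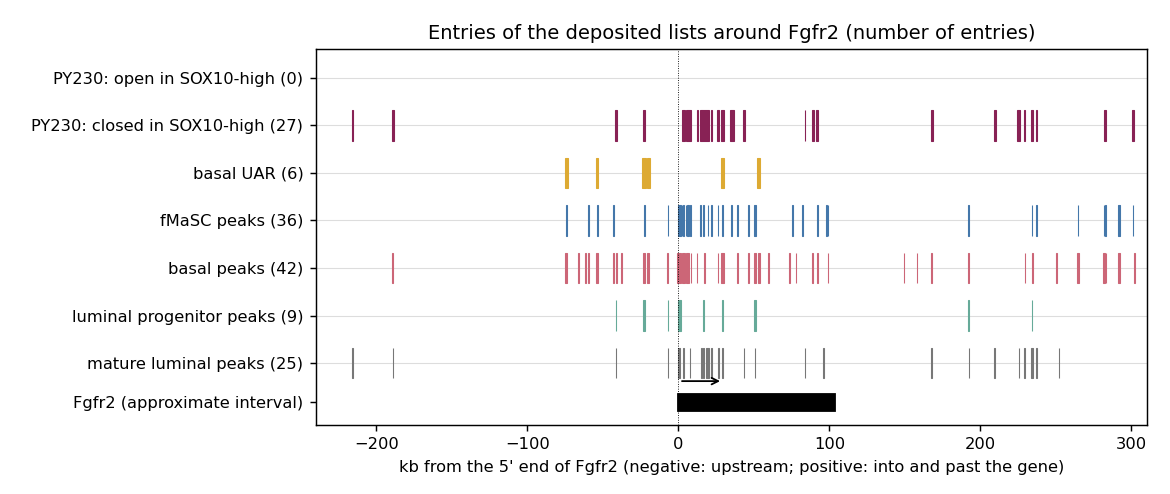
Map of all 145 entries by list, against distance in kb from the 5′ end of Fgfr2. Each bar is a region drawn to scale (with a thin outline so that short ones can be seen), the black box is the approximate gene interval, and the arrow gives the direction of transcription. The open PY230 list has no entry, and the 9 luminal progenitor peaks are spread thinly where the other types have dense groups.

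Merging the peaks of the 4 types gave 61 sites in the window, of 128800 in the genome. Basal peaks were present at 41 of the 61 sites, against 61.5% of sites genome-wide, and fMaSC peaks at 32 sites, against 58.0%. Mature luminal peaks were present at 25 sites, against 45.9%. Luminal progenitor peaks were present at 9 of 61 sites, or 14.8%, where the genome-wide share was 44.4%. In number, the 9 luminal progenitor peaks were near the median of 10 in the 550 kb grid windows described below. The 42 basal, 36 fMaSC and 25 mature luminal peaks were above their medians of 14, 15 and 10. The luminal progenitor and mature luminal lists are of similar length, with 60030 and 61584 peaks. Basal peaks covered 6.32% of the window's bases and fMaSC peaks 3.63%, while mature luminal peaks covered 2.62% and luminal progenitor peaks 1.30%. Each list joins 2 samples of unknown depth, so no error between animals can be given for these counts.

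A peak in 1 type alone was seen at 32 sites, or 52.5%, against 46.0% genome-wide. Of these, 16 were basal (26.2% of the window's sites, against 15.5% genome-wide) and 10 mature luminal (16.4%, against 12.2%). Another 6 were fMaSC (9.84%, against 13.5%), and 0 were luminal progenitor (4.76% genome-wide). The pair of fMaSC and basal cells shared another 13 sites that no luminal type had, 21.3% of sites in the window against 9.63% genome-wide. Luminal progenitor peaks paired with those of just 1 other type at 0 sites. Genome-wide such pairs made up 2.23% of sites with basal, 2.07% with fMaSC and 3.17% with mature luminal cells. With the 30015 strongest peaks of each list, 1 site paired with basal and 1 with fMaSC cells. A peak in all 4 types was present at 6 of 61 sites (9.84%), against 21.7% genome-wide.

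The 6 sites open in all types were spread over 242 kb. From the gene's 3′ flank to its 5′ flank they lay at chr7:137175220-137176313, chr7:137217358-137218105, chr7:137358703-137359887, chr7:137380131-137381520, the 5′ end itself, and chr7:137416693-137417357. The first was the strongest mature luminal peak of the window, with a fold of 22.7 (top 6.61% of that list), and a weak luminal progenitor peak with a fold of 4.99. It lay 234.2 kb downstream of the 5′ end, far past the 3′ end of the gene. The site 29.2 kb inside the gene held the strongest basal peak of the window, with a fold of 23.7 (top 5.13%). The same site ranked second among mature luminal peaks of the window, with a fold of 14.7. The site 50.7 kb inside the gene was the second of luminal progenitors, with a fold of 11.8, and had a fold of 17.5 in basal cells.

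Some strong peaks belonged to fewer types. The second fMaSC peak of the window, chr7:137403112-137404166, had a fold of 19.2 and lay 6.4 kb inside the gene, within a merged site that also held a basal peak. The next fMaSC peaks, at 3 of the sites shared by all types, were tied at a fold of 12.4. The third luminal progenitor peak, chr7:137393130-137393896, had a fold of 10.4 and overlapped fMaSC and mature luminal peaks but no basal peak. Near the 3′ end, the first site of the gene interval was shared by fMaSC and basal cells, with folds of 4.81 and 5.60. No normal type had a peak in the 113.6 kb from 75.1 to 188.8 kb upstream, nor in 50.0 kb that begin 99.2 kb downstream of the 5′ end and run across the 3′ end.

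**Figure D2:**
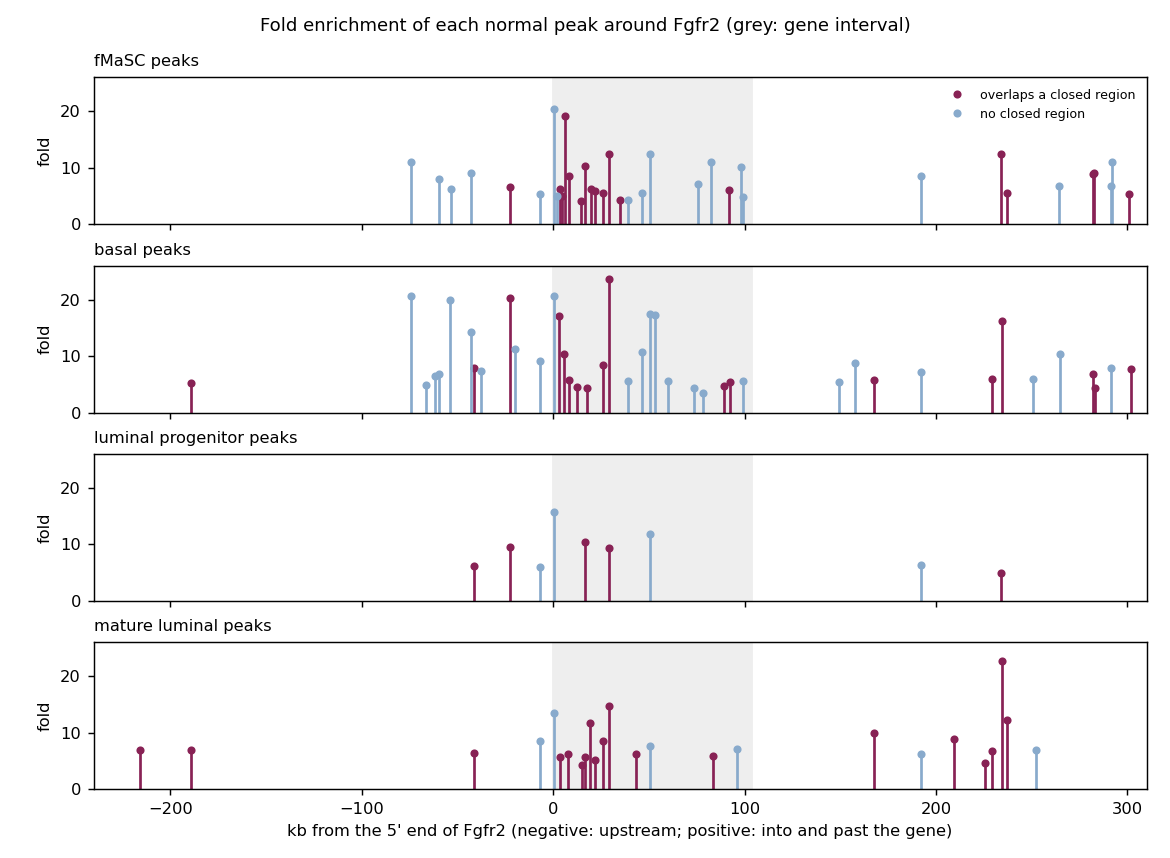
Fold enrichment of every normal peak of the window, with 1 panel per cell type, against distance in kb from the 5′ end; grey marks the gene interval and dark points overlap a region closed in SOX10-high PY230 cells. The peak at the 5′ end is tall in every panel and overlaps no closed region, whereas the tallest basal and mature luminal peaks, at 23.7 and 22.7, do.

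Of the 8 lists named UAR or URR, the basal UAR list alone reached into the window. The labels do not expand these names. Each of the 6 basal UARs overlapped a basal peak, but the share of the whole basal UAR list that does so was not counted. The 6 basal UARs were 1700 to 2300 bp wide. Their median width was 2050 bp, and that of the whole list 1700 bp. They touched 6 of 61 sites, against 4.80% of sites genome-wide. Their scores are the authors', of unknown scale, and 5 of the 6 were above the list's median of 1633.

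Upstream of the gene lay 4 of the 6 basal UARs, 19.9 to 74.3 kb from the 5′ end. The farthest, chr7:137483201-137485400, had the highest score of the window (11865, rank 90 of 5144) and overlapped a basal peak with a fold of 20.7. Closer in, chr7:137463101-137464800 had a score of 3349.6, chr7:137431601-137433900 a score of 3001, and chr7:137428901-137430900 a score of 2377. Inside the gene, chr7:137355801-137357700 had a score of 7704 (rank 242) and overlapped a basal peak alone, with a fold of 17.2. The last, chr7:137380001-137382100, had the lowest score, 643, and lay over the site shared by all 4 types. An fMaSC peak overlapped 4 of the 6 (42.8% in the whole list), a luminal progenitor peak 2 (26.2%) and a mature luminal peak 1 (19.2%).

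In luminal PY230 tumour cells the Fgfr2 window had no region open and 27 regions closed in SOX10-high relative to SOX10-low cells. The whole lists hold 3208 open and 15108 closed regions. Of the 61 normal sites, 0 overlapped an open region (1.88% genome-wide) and 32, or 52.5%, overlapped a closed region (11.0% genome-wide). The samples behind the lists are the 3 SOX10-high and 3 SOX10-low samples as far as the labels tell, without values per sample, so the spread between tumours is not known. The window was chosen for this contrast, so these shares are a description.

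Closed regions were densest in the 5′ part of the gene. Of the 27, 15 lay in the gene interval, 8 in the 3′ flank and 4 in the 5′ flank. Normal sites were also densest in the gene interval. They numbered 31, 16 and 14 in the same order, of which 18, 9 and 5 overlapped a closed region (11.0% of sites genome-wide). The first 50 kb downstream of the 5′ end held 12 closed regions. Normal sites were not counted apart for this stretch. Nearest to the 5′ end lay chr7:137405401-137407500 (score 339), chr7:137403801-137405200 (479), chr7:137401401-137403600 (70.9) and chr7:137397301-137397800 (156). The first of these ended 601 bp from the site at the 5′ end. Next came chr7:137394401-137395500 (39.1), chr7:137389901-137394200 (83.2), chr7:137387801-137388600 (31.6) and chr7:137383301-137384300 (604). The region of 4300 bp among them was the widest of the window and spanned 3 sites with peaks of all 4 types between them. The deepest 4 of this group were chr7:137380001-137381600 (253), chr7:137374701-137375600 (67.4), chr7:137373501-137374200 (331) and chr7:137366201-137367200 (44.5). Farther into the gene, chr7:137325901-137326500 had a score of 352, chr7:137320501-137321600 one of 40.7 and chr7:137317401-137318600 one of 37.9.

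The highest scores lay outside the gene. In the 3′ flank, chr7:137172401-137173500 had a score of 1496 (rank 369 of 15108), chr7:137241701-137242800 a score of 1393 and chr7:137200001-137201000 a score of 1001. At 215.9 kb upstream, chr7:137625501-137626300 had a score of 1375. The region over the strongest mature luminal peak of the locus, chr7:137175101-137176500, had a score of 699. Each of these 5 regions overlapped a mature luminal peak and was in the top 10% of the closed list. The others of the 3′ flank were chr7:137183901-137185600 (339), chr7:137108301-137109800 (174), chr7:137180301-137181500 (65.5) and chr7:137126901-137128300 (41.4). In the 5′ flank, chr7:137450701-137451700 had a score of 315, while chr7:137598501-137599700 and chr7:137432001-137433400 were near the end of the list at 25.6 and 25.5. The median score was 174 in the window, against 123 in the whole list.

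**Figure D3:**
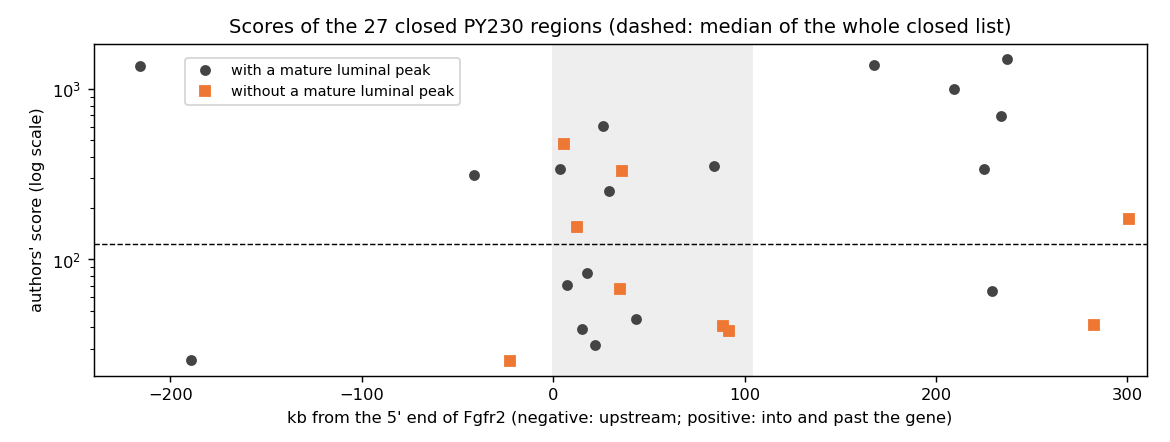
Score of each of the 27 closed regions (log scale) against distance in kb from the 5′ end, with circles for regions that hold a mature luminal peak and squares for those that do not. The 4 scores above 1000 lie in the flanks, and regions in the 5′ part of the gene range from 31.6 to 604.

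The closed regions of the locus included sites where mature luminal cells had no peak. Of the 27, 18 held a mature luminal peak (83.1% in the whole list), 17 a basal peak (30.1%), 15 an fMaSC peak (25.6%) and 5 a luminal progenitor peak (31.4%). A peak of any type was present in 26 (86.7%), and chr7:137373501-137374200 held none. Among sites with a mature luminal peak, 19 of 25 were closed (22.3% genome-wide). Among sites without one, 13 of 36 were closed (1.31% genome-wide). These 13 included 5 of 16 sites of basal cells alone (1.51% closed genome-wide) and 4 of 13 of fMaSC and basal cells (2.06%). The rest were 3 of 6 sites of fMaSC cells alone (1.04%) and the 1 site of fMaSC, basal and luminal progenitor cells (0.756%). Some of these 13 lay only under closed regions that also held the mature luminal peak of a neighbouring site. Those closed regions were chr7:137389901-137394200, chr7:137394401-137395500, chr7:137401401-137403600 and chr7:137598501-137599700. The share in the window and the share genome-wide both count such sites. The 9 closed regions without a mature luminal peak had a median of 67.4 and reached 479, and the 18 with one had a median of 327. In the whole list the medians were 92.9 without and 133 with such a peak.

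Counted by peaks, 19 of 25 mature luminal peaks overlapped a closed region (21.6% in the whole list), as did 18 of 42 basal peaks (6.03%), 18 of 36 fMaSC peaks (5.27%) and 5 of 9 luminal progenitor peaks (8.41%). Of sites with a mature luminal peak alone, 8 of 10 were closed (42.8% genome-wide). Sites of all 4 types were closed in 2 of 6 cases (7.33% genome-wide). The closed ones were those 234.2 kb downstream and 29.2 kb inside the gene, and the 4 others, the 5′ end included, were in neither PY230 list. Of the 6 basal UARs, 2 overlapped a closed region (3.95% in the whole list) and 0 an open one (0.836%). They were the UAR over the site 29.2 kb inside the gene and the one 22.8 kb upstream, whose closed region had the lowest score of the window. The basal UARs of rank 90 and 242 overlapped none.

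**Figure D4:**
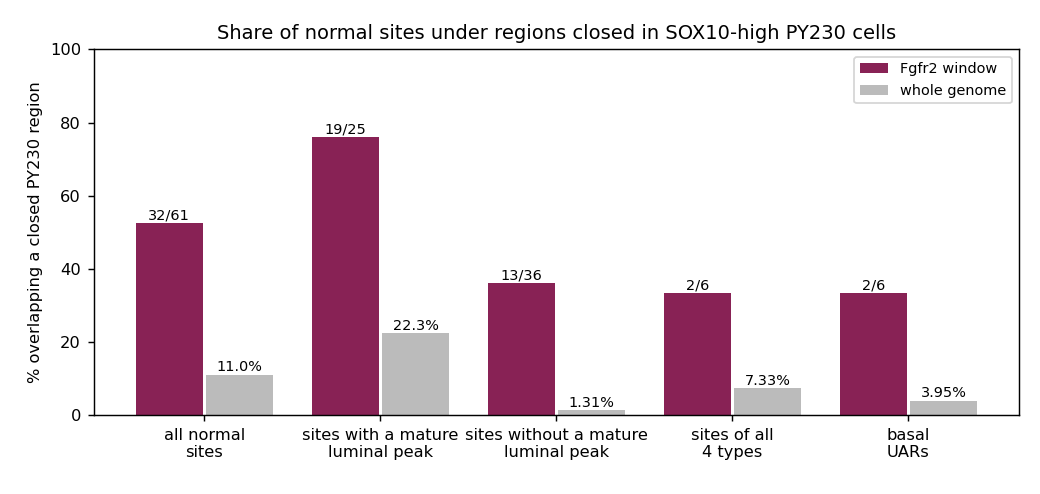
Percent of normal sites and of basal UARs that overlap a region closed in SOX10-high PY230 cells, in the Fgfr2 window (dark bars, with counts) and genome-wide (grey bars). The share is 52.5% against 11.0% for all sites and 36.1% against 1.31% for sites without a mature luminal peak. Sites without such a peak also count where the closed region over them holds the mature luminal peak of a neighbouring site.

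The 27 closed regions of the Fgfr2 window were then set beside other stretches of the same width, as a description. Chromosomes were divided into windows of 550 kb, and 4528 of them outside the Fgfr2 window held an entry of any list. These windows lay on a fixed grid that can split a group of regions, whereas the Fgfr2 window was placed around its locus. The median of the grid windows was 2 closed regions, and 1 grid window held at least 27. That window, chr14:118800001-119350000, held 33 closed regions, 0 open regions and 1 basal UAR. As many basal peaks as at Fgfr2 (42) were held by 9.81% of windows, and as many mature luminal peaks (25) by 18.7%. At least 6 basal UARs were present in 4.35% of windows. Luminal progenitor peaks numbered 9 at Fgfr2, against a median of 10 per window.

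**Figure D5:**
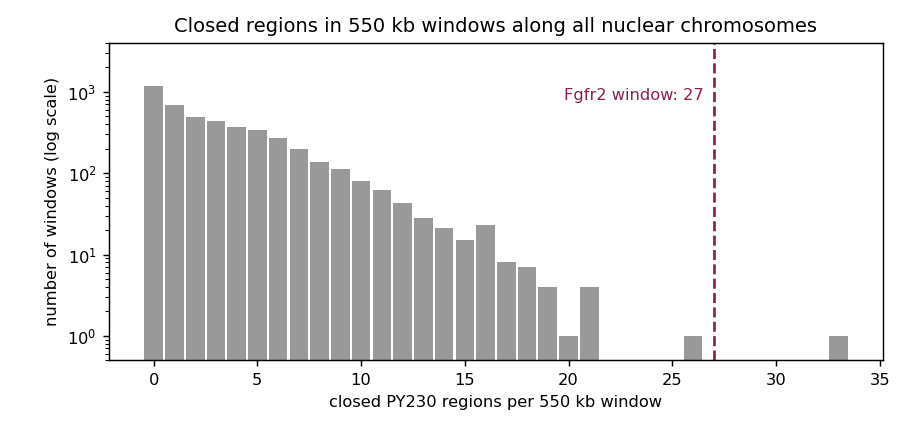
Number of 550 kb windows (log scale) by the number of closed PY230 regions they hold, over 4528 windows. The windows lie on a fixed grid. The dashed line marks the 27 of the Fgfr2 window, which was placed around its locus. Of the grid windows, 1 exceeded it with 33.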

How the data were processed

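Nuclei of sorted cells were treated with a Nextera transposase and sequenced on an Illumina HiSeq, per the labels' protocols. Build mm9, SICER, MACS2 2.1.1, Bowtie 0.12.8, FastQC, bedtools 2.20.1 and SAMtools 1.3.1 are named, without roles, in the submitters' processing notes. Which peaks exist can depend on the handling of duplicates and of the Tn5 offset, not given in the sources used.

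The authors called peaks on both samples of each normal type together at a q-value of 0.001, per the list names, and each deposited peak carries a fold enrichment (a ratio over background). The other 10 deposited lists carry the authors' score, of unknown scale, for regions on a 100 bp grid. There are no counts, so depth is unknown, and with no values per sample no test or replicate error was possible.

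Coordinates are 1-based. Grid lists were moved by 1 base, and mitochondrial peaks were left out. Overlap means at least 1 shared bp. Genome-wide values are over all nuclear entries. Ranks run from the highest value, and equal values were ordered by position. Overlaps were tested on simulated data, where they equalled bedtools 2.31.1. Python 3.11.15, numpy 2.4.6 and pandas 2.3.3 were used.

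The members, lists and alternatives were chosen with earlier results of these data known. Named were all UAR, URR, open and closed entries, the 3 highest peaks per list, all sites of 4 types, and sites at the gene's ends. The share of sites by mature luminal peak, the 550 kb windows and the promoter letters were chosen after the lists were seen. The FGF pathway and marker loci were not analysed here, for want of an mm9 annotation.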

Additional observations from a re-analysis of the deposited data

How the results depend on the processing

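Across 70 alternatives for the main counts, 46 stayed within 1.5 times the reported count. Some of these 46 could not have moved, because they concern lists with no entry in the window. The alternatives that did move fall under 3 settings. With the gene interval alone, peaks numbered 21 in fMaSC, 18 in basal, 4 in luminal progenitor and 13 in mature luminal cells. Sites of all 4 types were 3, sites of 1 type 17, closed regions 15 and basal UARs 2. With peaks at or above their list's median fold, peaks numbered 16, 19, 5 and 9 in the same order of types. With the 30015 strongest peaks of each list they numbered 10, 12, 5 and 7. Sites of all 4 types were then 2 and sites of 1 type 14. Closed regions that held a peak were then 5 for fMaSC, 4 for basal, 3 for luminal progenitor and 6 for mature luminal cells. Sites under closed regions were then 10 of 21, and 4 of 14 without a mature luminal peak, alternatives added after the data were seen. Genome-wide shares were not computed for the strongest peaks, so whether the contrast with the genome holds there was not tested. These settings use fewer peaks or a shorter interval by construction. Luminal progenitors had the fewest peaks under each. Merging within 500 bp, an overlap of at least 50%, a width of 500 bp and peak midpoints moved none of the main counts past 1.5 times. The strongest-peak setting does not apply to overlaps between UAR and PY230 lists. Among 76 alternatives for single combinations of types, covered bases and ranks, 21 moved by more. No paired analysis was possible because each list pools its samples, and no sample could be left out. Depth is unknown, so weak sites may be missing from any list.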

Other observations

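The Fgfr2 window held 27 closed and 0 open regions, with 32 of 61 normal sites under a closed region, and closed regions continued on both sides of it. The next 550 kb on the lower side held 12 closed and 0 open regions, with 10 of 27 normal sites under a closed region. The next 550 kb on the higher side held 14 closed regions and 1 open region, with 11 of 66 sites under a closed region. Genome-wide, 11.0% of normal sites overlapped a closed region, and the median of the grid windows was 2 closed regions. Luminal progenitor peaks numbered 9 in the Fgfr2 window, 10 on the lower side and 29 on the higher side. The closed regions nearest to the window's edges lay 27.6 kb below it, with a score of 49.8, and 66.4 kb above it, with a score of 47.0. The nearest open region lay 125 kb above it, with a score of 38.7.

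The first region of the mature luminal URR list lay 145 kb below the window, at chr7:136953401-136954600, with the highest score of its 1028 regions (28517). A mature luminal UAR of rank 10 among 3282 lay 550 kb below the window, at chr7:136548601-136550500. The basal UARs nearest to the window lay 37.1 kb below and 166 kb above it. Just above the window, 12.2 to 12.5 kb from its edge, all 4 normal types had a peak, with folds of 26.3 in fMaSC, 23.7 in basal, 18.1 in luminal progenitor and 14.9 in mature luminal cells.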
